A study of Xenopus laevis with 18 samples.

Results

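Late tailbud embryos (NF30 and NF33) were compared with early tailbud embryos (NF23 and NF26) of the African clawed frog Xenopus laevis, which gives 4 of the 18 libraries of the series, chosen by their stage label alone. NF is the Nieuwkoop and Faber stage series. All embryos were of the J strain, were given no treatment, were raised in dilute MMR saline with gentamycin and were sequenced whole after depletion of ribosomal RNA. Each stage is 1 library, and neither the number of embryos nor their parentage is given in the sources used here. NF30 and NF33 therefore stand as the 2 late libraries and NF23 and NF26 as the 2 early ones. The spread within each pair holds real change between neighbouring stages as well as technical spread, and p-values measure change between pairs against this spread. The late neurula pair (NF18 and NF20) and the early neurula pair (NF14 and NF16) were fitted beside them.

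In tailbud stages the frog embryo lengthens along its axis, the neural tube is closed, the somites form muscle, and the rudiments of heart, eye, ear, pronephric kidney and gut take shape. Zygotic transcription has by then long replaced transcription by the oocyte as the source of new messenger RNA, although many genes whose transcripts were stored in the egg are also transcribed in the embryo. Of 30993 Xenopus transcript rows, 0 had a name that matched the RefSeq gene table, so rows carry no gene symbol and tissue markers could not be checked against the stage labels. Rows are described by their level, their time course and their level before the tailbud stages. In whole embryos, fewer cells of a type and less RNA per cell cannot be told apart.

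Values are TPM, transcript abundance corrected for length and given relative to the Xenopus total of the library, which keeps no depth, so the depth of these libraries is unknown. ERCC spike-ins, synthetic RNAs added to each sample, took 19.5% of the deposited total at NF30 and 19.2% at NF33, against 25.8% at NF23 and 24.2% at NF26. Of the 4 tailbud columns only that of NF23 summed to more than 1000000 as deposited, by 2.13%. In the neurula both late columns did so, by 2.49% at NF18 and 2.26% at NF20, and neither early column did. An exact 0 can be a failed estimate, since 35 rows were listed at 0 at NF23, NF26 or NF30 between neighbouring stages at 10 TPM or more.

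The Xenopus total per spike-in total was higher in late tailbud embryos. It was 4.14 at NF30 and 4.20 at NF33, against 2.88 at NF23 and 3.12 at NF26. The pairs did not overlap, and both late libraries lay close together after a step between NF26 and NF30. The mean was 4.17 ± 0.0416 in late and 3.003 ± 0.171 in early tailbud embryos (SD, n = 2 each), a ratio of 1.39. With 2 libraries against 2 the exact permutation test cannot give less than the p of 0.33 found here (two-sided). On the TPM scale the median row changed by -0.13 on the log2 scale from early to late tailbud, and on the spike-in scale by 0.29. Directions below are in TPM unless another scale is named. A direction given in TPM alone need not hold per spike-in.

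More rows were listed above 0 in late tailbud embryos, and fewer stood at 100 TPM or more. Rows listed above 0 numbered 26703 at NF30 and 27574 at NF33, against 25770 at NF23 and 26464 at NF26. This count was already higher at NF20 (24188) than at NF0 (20144), so its rise is not particular to the tailbud. Spike-ins took a smaller share of the late libraries and depth is unknown. Whether either affects this count was not tested. Rows at 100 TPM or more numbered 1310 at NF30 and 1214 at NF33, against 1361 at NF23 and 1375 at NF26. For both counts the pairs did not overlap (exact permutation p = 0.33, the smallest possible). At 1 TPM or more they did, with 22054 rows at NF30 and 22802 at NF33, against 21085 at NF23 and 22138 at NF26 (exact permutation p = 0.67). Rows at 1000 TPM or more were about as many, with 148 at NF30 and 158 at NF33, against 148 at NF23 and 145 at NF26.

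A change of at least 2-fold on log2(TPM + 1) between the pair means, with no overlap between the libraries of both pairs, was seen in 1879 of 21920 rows that averaged 1 TPM or more over NF14 to NF33, or 8.57%. Of these, 975 rows (4.45%) were higher and 904 (4.12%) lower in late tailbud embryos. Over all levels larger changes lay more often on the higher side. By at least 4-fold 245 rows were higher and 121 lower, and by at least 8-fold 72 and 22. This depended on level. Among the 11252 rows that averaged 10 TPM or more over NF14 to NF33, 246 were higher and 580 lower by 2-fold. By at least 4-fold 77 of them were higher and 92 lower, and by at least 8-fold 32 and 16. A row can pass either cut-off on the mean through the pair where it is high, which partly sets these counts. Of the 975 higher rows 483, and of the 904 lower rows 25, averaged under 1 TPM both at NF0 to NF7 and over NF14 to NF20. Without a threshold on size, the pairs did not overlap for 56.2% of rows. All 975 higher rows were also higher by 2-fold without overlap on the spike-in scale and after median ratio scaling, which brings the median ratio of rows to a common level. Of the 904 lower rows 369, or 40.8%, were lower on all 3 scales. Both of these scales move every row upwards in late tailbud libraries relative to TPM. That all 975 higher rows stayed higher is thus set by the scaling and is no further support for them. The smaller number of lower rows is in part set by it too. Leaving out 1 tailbud library moved these counts both up and down. Without NF26 1740 rows were higher and 1256 lower, and without NF30 1679 and 1677. Without NF23 730 were higher and 1027 lower, and without NF33 752 and 667. A pair of 1 library makes an overlap less likely, but the fold between the pairs moves too. What set these counts was not tested.

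Rows already well expressed in the neurula were more often lower than higher in TPM, but not at every level per spike-in. Rows were placed by their mean over NF14 to NF20, which uses no tailbud library, and all rows at 10 TPM or more there passed the filter on low values. Of 8965 rows at 10 to 100 TPM, 0.87% were higher and 5.29% lower in late tailbud by 2-fold without overlap. Of 1474 rows at 100 to 1000 TPM these shares were 0.339% and 8.68%, and of 123 rows at 1000 TPM or more 0.813% and 8.13%. Per spike-in, higher rows were the majority at 10 to 100 TPM, with 4.48% higher and 2.07% lower. On that scale 3.05% were higher and 4.07% lower at 100 to 1000 TPM, and 4.07% higher and 4.88% lower at 1000 TPM or more.

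Changes of this size were not seen among spike-ins, which have no stage, at levels of at least 10. Of 46 ERCC rows with a mean level of at least 10 on the scale of the table, 0 changed 2-fold between the late and early tailbud pairs, after division by the ERCC total. Of 9776 Xenopus rows with a mean level of at least 10 on that scale, 730, or 7.47%, moved that far from the median row. The robust SD of the log2 change, a spread measure that outlying rows do not move, was 0.0752 for ERCC rows and 0.408 for Xenopus rows. These sets differ in level within that range. Levels of 10 to 100 held 14 of the 46 ERCC rows and 8765 of the 9776 Xenopus rows. There the robust SD was 0.135 for ERCC rows and 0.394 for Xenopus rows. At levels of 1 to 10 these values were closer, at 0.354 for 26 ERCC rows and 0.515 for 11943 Xenopus rows. The one ERCC row at a level of 1 or more that passed 2-fold was ERCC-00051, with a mean level of 9.40 and a log2 change of -1.89, and its libraries overlapped between the pairs. When ERCC rows were fitted together with Xenopus rows on the spike-in scale, 2 of 76, or 2.63%, had an unadjusted p under 0.05 with limma and 0 passed the adjusted threshold. For Xenopus rows that unadjusted share was 24.0%, and 103 of 22308 passed the adjusted threshold. At so small a share, 0 of 76 says little about the ERCC rows. Fitted without ERCC rows on this scale, 174 Xenopus rows passed it. The scale sets part of the contrast in unadjusted shares, since division by the ERCC total centres the ERCC rows. Their median log2 change was -0.04, while Xenopus rows kept a shared shift, with a median of 0.30. In TPM the unadjusted share of Xenopus rows was 19.6%.

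**Figure D1:**
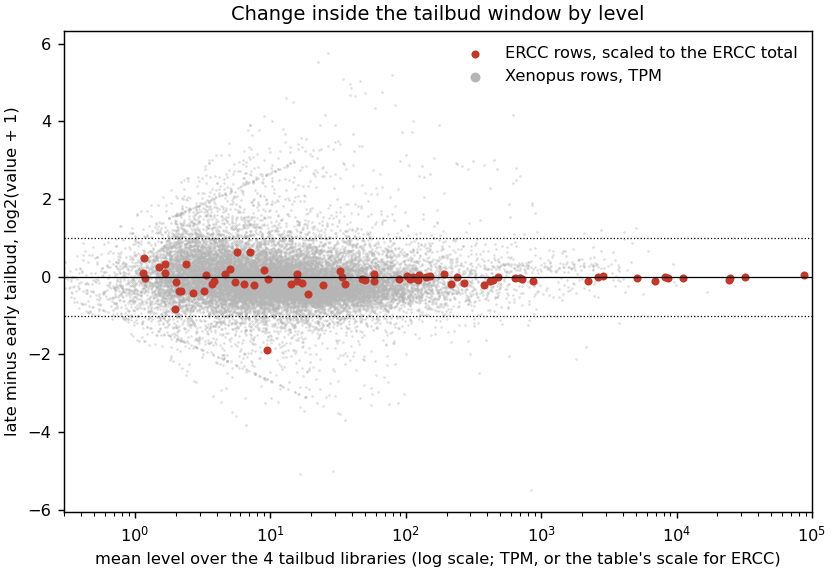
Each point is a row, with its mean level over the 4 tailbud libraries on a log axis and its late minus early tailbud change in log2(value + 1) on the vertical axis. Grey points are Xenopus rows in TPM, red points are ERCC rows scaled to the ERCC total, and dotted lines mark 2-fold. All 46 ERCC rows at a level of at least 10 lie between the dotted lines. The 730 Xenopus rows given in the text were counted on the scale of the table, relative to the median row. They are therefore not exactly the grey points outside the lines.

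In a model across all rows few changes passed correction. With limma on the 8 libraries of NF14 to NF33, 8 of 21920 rows, or 0.0365%, had an adjusted p under 0.05, of which 5 were higher and 3 lower in late tailbud embryos. Before correction 4306 rows (19.6%) had p under 0.05, of which 1405 were higher and 2901 lower. That majority turned with the scale, to 4734 higher and 623 lower rows on the spike-in scale and 2223 higher and 1819 lower after median ratio scaling. The number of calls rested on the libraries fitted. With all 18 libraries, limma called 521 higher and 599 lower rows at the same adjusted threshold, or 5.17% of 21670. That fit also takes its spread from earlier stages. Over the 11252 rows at 10 TPM or more, the median SD on the log2 scale was 0.113 within NF0 to NF7. It was 0.111 within NF8 to NF9 and 0.410 within NF10 to NF12, against 0.145 in the early and 0.191 in the late tailbud pair. Whether this moved the count was not tested. Without NF30 the counts were 281 higher and 463 lower, without NF26 9 and 24, without NF14 or NF16 1 and 1, without NF18 or NF20 3 and 7, without NF33 8 and 2 and without NF23 5 and 10, and on the spike-in scale they were 148 and 26 (0.78% of 22308). Of the 8 rows, 6 were listed at 0 in both libraries of one tailbud pair, and 5 of these were listed at 0 in all libraries outside the other pair.

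The largest called rise and the largest called fall were rows present in a single pair. XeXenL6RMv10013433m stood at 53.0 TPM at NF30 and 53.1 TPM at NF33, and was listed at 0 at NF23 and NF26 and at all 14 other stages (limma, adjusted p = 0.00141). XeXenL6RMv10021601m was listed at 0 at NF30 and NF33, against 32.5 TPM at NF23 and 33.5 TPM at NF26, and was listed at 0 at the other 14 stages (limma, adjusted p = 0.00287). Pairs listed at 0 show no spread, so both p-values rest partly on tied zeros. With pseudocount 0.1 the limma adjusted p was 0.093 for the rise and 0.0983 for the fall. Both rows were on in 2 neighbouring libraries at nearly equal values and listed at 0 in the rest. Such switches were rare. Among all rows, 6 were at 10 TPM or more in both late libraries and listed at 0 in both early ones, and 3 were the reverse. Of the 6 rows 3, and of the 3 rows 2, were listed at 0 in the other 14 libraries. Between late and early neurula pairs 8 and 9 rows met the same condition, and 0 of them were at 0 in all other libraries. Those neurula pairs also differ in the kind of deposited column, which cannot be told apart from stage there.

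The other named rows changed within a longer course. XeXenL6RMv10044199m stood at 46.6 TPM at NF30 and 108 TPM at NF33, against 0.633 TPM at NF23 and 2.79 TPM at NF26. It had been at most 0.33 TPM in every earlier library, so its rise began inside the window. Its log2 change was 4.86 (SE 0.513, limma adjusted p = 0.0428). XeXenL6RMv10013285m stood at 1.64 TPM at NF30 and 0.198 TPM at NF33, against 70.5 TPM at NF23 and 43.5 TPM at NF26. It had risen from 4.65 TPM at NF10 over 310 TPM at NF12 to 945 TPM at NF16, and was at 220 TPM at NF20, so the tailbud fall continued one that started in the neurula. Its log2 change was -4.99 (SE 0.556, limma adjusted p = 0.0444). Both calls rested on single libraries and on settings. The limma adjusted p of the rise was between 0.0564 and 0.142 without NF14, NF16, NF18, NF20, NF23 or NF33, and that of the fall was between 0.107 and 0.383 without NF14, NF16, NF23, NF26 or NF33, while the directions were kept. After median ratio scaling the limma adjusted p was 0.0521 for the rise and 0.0707 for the fall, and with the kind of deposited column as a covariate 0.181 and 0.473.

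**Figure D2:**
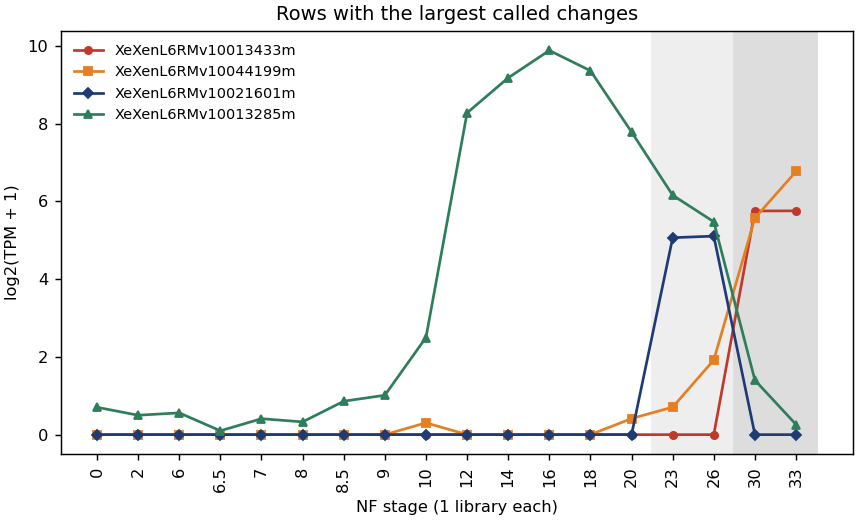
Levels of the 4 named rows as log2(TPM + 1) at each NF stage, 1 library per stage, with light shading over early and dark shading over late tailbud. XeXenL6RMv10013433m appears at NF30 and XeXenL6RMv10021601m is present at NF23 and NF26 alone, while XeXenL6RMv10013285m peaks at 945 TPM at NF16 and falls through the tailbud stages.

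How a row changed inside the tailbud window went with its level before it. Rows were placed by their mean at NF0 to NF7, when the RNA is maternal, and their mean over NF14 to NF20, without use of the tailbud libraries. The 1302 rows that were under 1 TPM in the first window and at 10 TPM or more in the neurula had a median log2 change of -0.58, and 328 of them, or 25.2%, were lower in late tailbud by 2-fold without overlap, against 21 that were higher. Over all rows tested the lower share was 4.12%. The share of 25.2% was 15.8% without NF33. Per spike-in it was 12.5%, beside 1.70% over all rows tested. The 8539 rows at 10 TPM or more in both windows had a median of -0.24, with 204 lower (2.39%) and 59 higher (0.691%). All rows of these classes passed the filter on low values. On the spike-in scale the medians were -0.14 and 0.22, against 0.29 over all rows, so the first class lay furthest below the other rows on both scales, by 0.46 in TPM and 0.43 per spike-in. Rows at 1 to 10 TPM in the first window and at 10 TPM or more in the neurula, 721 in number, lay between them, with a median of -0.37 and 11.1% lower.

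**Figure D3:**
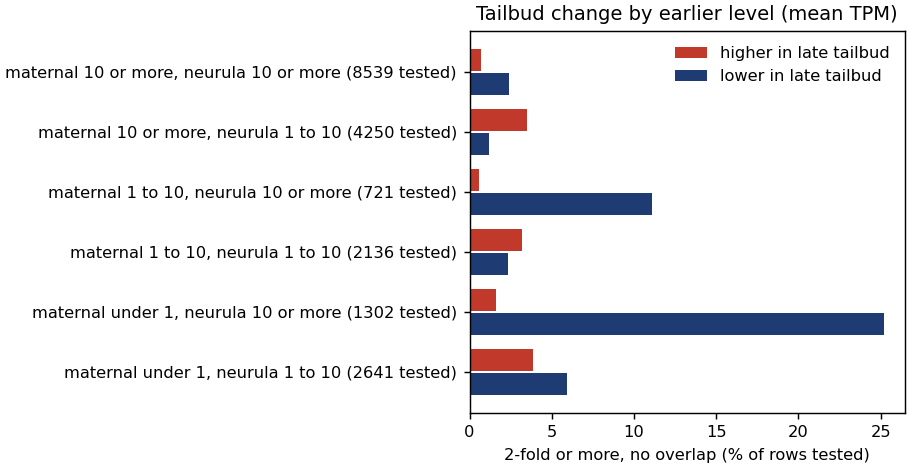
Share of tested rows that were higher (red) or lower (blue) in late than in early tailbud by at least 2-fold without overlap, for 6 classes of mean TPM at NF0 to NF7 (maternal) and NF14 to NF20 (neurula). Rows under 1 TPM early and at 10 TPM or more in the neurula show the longest blue bar at 25.2%, and rows at 10 TPM or more in both windows reach 2.39%.

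Within the class that came on by the neurula, the median row was lower in late tailbud, while the summed share of the class was higher in both late libraries. Its rows held 13.2% of the Xenopus total at NF30 and 13.2% at NF33, against 12.1% at NF23 and 12.8% at NF26. At the same time the rows at 10 TPM or more numbered 869 at NF30 and 732 at NF33, against 1057 at NF23 and 1002 at NF26. Rows of the class at 1000 TPM or more numbered 26 at NF30 and 31 at NF33, against 22 at NF23 and 23 at NF26. Of the 149 rows with a neurula mean of 100 to 1000 TPM, 64 (43.0%) were lower by 2-fold without overlap and 4 higher, and yet these rows held 6.49% and 7.13% of the total at NF30 and NF33, against 5.34% and 5.90% at NF23 and NF26. The other levels of the class did not share this. The 1141 rows at 10 to 100 TPM held 3.83% and 3.81% at NF30 and NF33, against 3.89% and 4.09% at NF23 and NF26. The 12 rows at 1000 TPM or more held 2.91% and 2.25% in late, against 2.83% and 2.78% in early tailbud libraries, so the pairs overlapped.

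Among rows that were low before the tailbud, the number at 10 TPM or more grew. The cut-offs partly fix that this count grew while that of the class on by the neurula fell. In the neurula the low rows averaged under 1 TPM, and the rows of the other class 10 TPM or more. Of 9294 rows under 1 TPM at NF0 to NF7 and in the neurula, 238 stood at 10 TPM or more at NF30 and 449 at NF33, against 88 at NF23 and 182 at NF26. Together they held 1.43% of the total at NF30 and 2.82% at NF33, against 0.724% at NF23 and 1.20% at NF26. The pairs did not overlap, and the larger step of the late pair was from NF30 to NF33. Of these rows 1688 passed the filter on low values, which they could do through the tailbud libraries alone, so shares of changed rows are not given for them. A smaller group of 447 rows had been at 10 TPM or more at NF0 to NF7 and under 1 TPM in the neurula. Of these, 11 were at 10 TPM or more at NF30 and 19 at NF33, against 8 at NF23 and 12 at NF26, so the pairs overlapped.

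**Figure D4:**
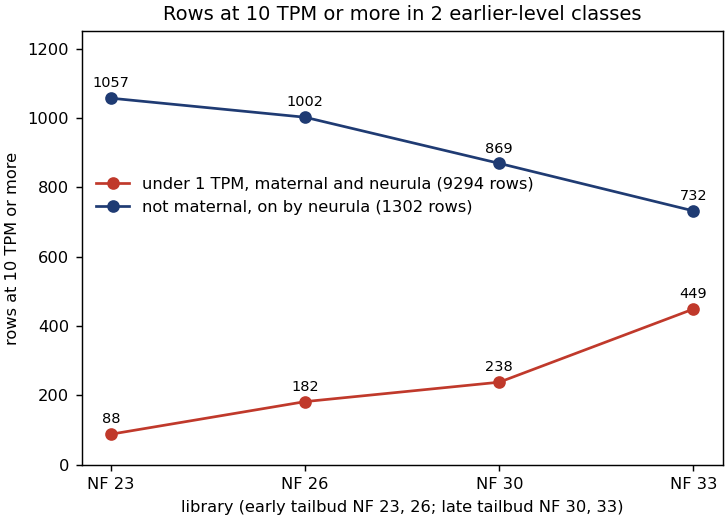
Number of rows at 10 TPM or more in each tailbud library, for the 9294 rows under 1 TPM at NF0 to NF7 and in the neurula (red) and the 1302 rows that came on by the neurula (blue). The red line climbs at each stage from 88 to 449 rows and the blue line drops at each stage from 1057 to 732. The cut-offs of the classes partly fix these opposite directions.

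The rows that were higher in TPM, and so by construction on all 3 scales, had mostly their highest level of the whole series at the last stage. Of these 975 rows, 656 (67.3%) were highest at NF33, against 11.3% of all rows tested, a difference that the choice of the rows partly fixes. A further 235 rows (24.1%) had their highest level before NF14, against 55.6% of all rows tested. The summed share of the total held by the 975 rows was 1.71% at NF0, 0.493% at NF14, 1.71% at NF23 and 8.31% at NF33. By their earlier levels, 483 of the 975 had been under 1 TPM both at NF0 to NF7 and in the neurula. Such rows could pass the filter through the tailbud libraries alone. A further 148 had been at 10 TPM or more at NF0 to NF7 and at 1 to 10 TPM in the neurula. That is 3.48% of the 4250 tested rows with such levels. Of rows at 1 to 10 TPM in the neurula, 3.18% were higher where NF0 to NF7 gave 1 to 10 TPM, and 3.86% where it gave under 1 TPM. Over all rows tested 4.45% were higher, a share that includes the 483 rows.

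Rows that were lower on all 3 scales had mostly come up during gastrulation and the neurula. The median level of these 369 rows was 0 TPM at NF0, 3.74 TPM at NF10, 19.0 TPM at NF12 and 24.5 TPM at NF16, and it was 3.25 TPM at NF30 and 1.52 TPM at NF33, against 13.7 TPM at NF23 and 9.51 TPM at NF26. The highest level lay at NF14 to NF20 for 171 rows (46.3%), before NF14 for 133 (36.0%) and in early tailbud for 65 (17.6%). Over all rows tested these shares were 16.0%, 55.6% and 12.9%. The choice of the 369 rows partly fixes these differences, since they could not be highest at NF30 or NF33. The fall of their median from early to late tailbud is set by that choice too. Of the 369 rows, 162 belonged to the class that was under 1 TPM at NF0 to NF7 and on by the neurula.

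**Figure D5:**
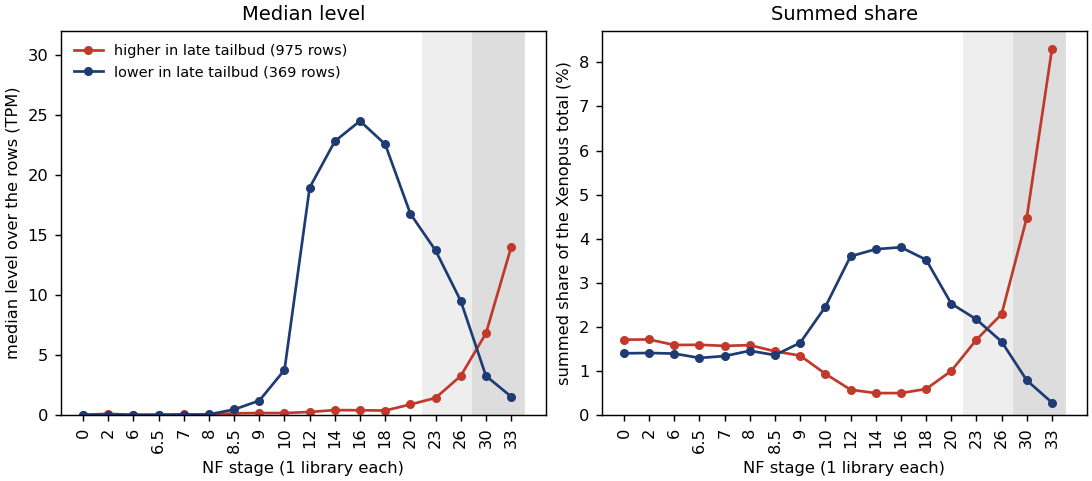
Median level in TPM (left) and summed share of the Xenopus total in percent (right) at each NF stage for the 975 rows higher (red) and the 369 rows lower (blue) in late tailbud on all 3 scales, 1 library per stage, with light shading over early and dark shading over late tailbud. The red share dips to 0.493% at NF14 and reaches 8.31% at NF33, and the blue median peaks at 24.5 TPM at NF16. The 975 rows are those higher in TPM, which the other scales could not remove.

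The change was spread over the whole window. Of 11479 rows that averaged 10 TPM or more over the 4 libraries, 3.21% changed 2-fold from NF23 to NF26, 3.34% from NF26 to NF30 and 3.85% from NF30 to NF33. From NF23 to NF26 276 rows were up and 92 down by that much, from NF26 to NF30 170 were up and 213 down, and from NF30 to NF33 195 were up and 247 down. Per spike-in the counts were 368 up and 68 down from NF23 to NF26, 481 up and 81 down from NF26 to NF30, where the majority turned, and 205 up and 251 down from NF30 to NF33. Of 46 ERCC rows 1, 0 and 0 changed 2-fold in these steps, and their robust SD was 0.166, 0.122 and 0.107. Only the step from NF23 to NF26 crosses the kind of deposited column, which cannot be told apart from stage there. Each step sets 1 library against 1, so it has no replicate check. Of the 975 higher rows, 735 (75.4%) rose in every one of the 3 steps, and of the 369 lower rows 259 (70.2%) fell in every step. Among all rows whose pairs did not overlap, 58.4% of the 4357 higher ones and 41.3% of the 7970 lower ones did so. In all of these rows the lack of overlap fixes the direction of the step from NF26 to NF30. The 2-fold cut-off uses the same libraries and favours rows that also move inside the pairs. The larger shares of the 975 and 369 rows are thus partly fixed by their choice.

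The most abundant rows stayed largely the same. Of the 100 most abundant rows by mean level in late tailbud and the 100 in early tailbud, 87 were shared. The late list held 31.1% of the total in late and 27.7% in early tailbud libraries (means of 2), and 4 of its rows were higher and 1 lower by 2-fold without overlap. The early list held 30.3% in late and 28.5% in early tailbud libraries, with 3 rows higher and 4 lower. Over all rows tested 4.45% were higher and 4.12% lower. Each list was ranked on the libraries of its own pair, which tilts its counts and its share of the total towards that pair. Rows that had been under 1 TPM at NF0 to NF7 numbered 18 among the 100 most abundant at NF30 and 25 at NF33, against 17 at NF23 and 18 at NF26. They held 6.09% of the total at NF30 and 7.83% at NF33, against 4.55% at NF23 and 5.18% at NF26, with no overlap between the pairs.

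In TPM the change inside the tailbud window covered a similar share of rows to that inside the neurula, and per spike-in a larger one. Between late and early neurula pairs, 1301 rows were higher and 498 lower by 2-fold without overlap (8.21% of 21920), beside 975 and 904 in the tailbud. On the spike-in scale the counts were 2497 higher and 373 lower in the tailbud (13.1%) and 1498 higher and 238 lower in the neurula (7.92%), so higher rows were the majority in both windows per spike-in. The median log2 change in TPM was -0.13 in the tailbud and 0.02 in the neurula. Per spike-in it was 0.29 and 0.19, so the shift shared by all rows was larger in the tailbud. After median ratio scaling 8.80% of rows changed by this rule in the tailbud and 8.13% in the neurula. The windows run from NF23 to NF33 and from NF14 to NF20 and were not matched for length, so these shares are not rates. Both comparisons share no library. Most rows that passed 2-fold in either window did not pass it in both. Yet rows that changed in either window changed in the other more often than all rows tested, in each combination of directions. The cause was not tested. Of the 975 tailbud rises, 68 had also risen between neurula pairs, or 6.97%, beside 5.94% of all rows tested, and 33 (3.38%) had fallen there, beside 2.27% of all rows. Of the 904 tailbud falls, 94 (10.4%) had risen and 56 (6.19%) had fallen between neurula pairs, beside the same 5.94% and 2.27%. Taken as shares of the 1301 neurula rises, 5.23% rose and 7.23% fell in the tailbud, beside 4.45% and 4.12% of all rows. Of the 498 neurula falls, 6.63% rose and 11.2% fell in the tailbud. In a test of the difference between both changes, 2 rows were more positive and 4 more negative in the tailbud (limma, adjusted p under 0.05, 0.0274% of rows), and 3651 rows (16.7%) had p under 0.05 before correction. Those counts were 96 and 457 without NF18, and 144 and 129 without NF30.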

How the data were processed

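RNA was measured in 18 whole-embryo libraries, 1 per stage. Per the submitters' processing notes, the tools included CASAVA 1.8.2, Trimmomatic, Bowtie and RSEM. In the sources used here, neither their roles nor the reference transcripts are given. The authors deposited 31085 rows, 92 of them ERCC spike-ins. The test design assumed TPM throughout, but only 9 deposited columns were TPM. The other 9 deposited columns held an abundance score on the TPM scale that summed to 1.48% to 2.72% over 1000000. ERCC rows were left out and each library rescaled to 1000000. The spike-in scale divides by the ERCC total. log2(TPM + 1) was tested with limma 3.58.1 in R 4.3.3 (eBayes with trend, Benjamini-Hochberg) on the 8 libraries of NF14 to NF33 in 4 pairs, over the 21920 rows that averaged 1 TPM or more. The fit was checked on simulated data. Named rows had an adjusted p under 0.05, at least 10 TPM in the higher pair, no overlap and the same direction per spike-in, and the 2 largest rises and falls were taken. Alternatives changed the scale, pseudocount, filter and libraries. Groups and lists were chosen with earlier results of these data known. The fold and overlap counts and the level classes after them were added with the data in view. Gene lists needing symbols were not run.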

Additional observations from a re-analysis of the deposited data

Results flagged for a closer look

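The change inside the tailbud window differed from the change inside the neurula for 6 rows by the test of the difference itself (limma, adjusted p under 0.05). Among the named rows this held for XeXenL6RMv10013433m, which was present in late tailbud alone (limma, adjusted p of the difference = 0.0111). It also held for XeXenL6RMv10021601m, which was present in early tailbud alone (limma, adjusted p of the difference = 0.0217). Both rows had a neurula change of 0, so their difference equals the tailbud change and is no separate result. Of the 6 rows, 3 were listed at 0 in both libraries of at least 1 of the 4 pairs. In the neurula comparison the kind of deposited column goes with the pairs and cannot be told apart from stage.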

How the results depend on the processing

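The counts of rows called by limma (adjusted p under 0.05) moved with most settings. Beside 5 higher and 3 lower rows in late than in early tailbud, the spike-in scale gave 148 and 26, median ratio scaling 1 and 1, pseudocount 0.1 and a filter at 5 TPM 0 and 0 each, no filter 9 and 4, all 18 libraries 521 and 599, the tailbud libraries alone 4 and 6, and the kind of column as a covariate 5 and 11. With this covariate NF23 adds nothing to the comparison, by construction. At pseudocount 5 the counts were 5 and 3. With a filter at 5 TPM 3538 rows, and with pseudocount 0.1 4042 rows, had an unadjusted p under 0.05. Leaving out 1 library gave 1 to 281 higher and 1 to 463 lower rows, and both highest counts came without NF30. The median log2 change turned to 0.30 on the spike-in scale and to 9.04e-05 after median ratio scaling, which centres it by construction, and it was -0.032 with no filter and -0.20 with a filter at 5 TPM. For the difference between tailbud and neurula changes, beside 2 more positive and 4 more negative rows, the counts were 2 and 2 on the spike-in scale, 2 and 1 after median ratio scaling, with pseudocount 5 and with no filter, 1 and 3 with pseudocount 0.1 and with a filter at 5 TPM, 378 and 538 with all 18 libraries, and 5 and 9 with the covariate. Leaving out 1 library gave 3 to 144 and 0 to 457. The cause of these moves was not tested.

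Counts by fold and overlap moved less with the libraries than the limma counts. Beside 975 higher and 904 lower rows, they were 2497 and 373 on the spike-in scale, 396 and 352 with pseudocount 5, and 414 and 743 with a filter at 5 TPM, which tests fewer rows. Leaving out 1 tailbud library gave 730 to 1740 higher and 667 to 1677 lower. Of the rows under 1 TPM at first and on by the neurula, the share lower by 2-fold was 12.5% on the spike-in scale, 19.4% after median ratio scaling, 29.6% with pseudocount 0.1, 13.3% with pseudocount 5 and 15.8% to 37.3% without 1 library. Their median less that of all rows kept its sign in all 9 alternatives, from -0.56 to -0.33. These alternatives were chosen after seeing the data. The ERCC spread was 0.118 with rows at a level of 1 or more. With pseudocount 5 the shares changed per step were 1.84%, 1.91% and 2.63%, and on the spike-in scale the first and second were 3.80% and 4.90%. The ratio of the Xenopus total per spike-in was 1.33 to 1.45 without 1 library. All 4 named rows kept their direction in 17 alternatives each, but limma's adjusted p was 0.05 or more in 2 of them for XeXenL6RMv10013433m and XeXenL6RMv10021601m, in 12 for XeXenL6RMv10044199m and in 11 for XeXenL6RMv10013285m. No paired analysis was possible because the labels give no replicate numbers. Depth is unknown, so no limit of detection is given.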
